A study of Glycine max with 5 samples.

Results

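The 14-3-3 proteins of soybean (SGF14 or GF14 genes) were followed on the soybean array, in mature pollen grains and in sporophytic tissues. All soybean probe sets whose only gene symbol starts with SGF14 or GF14 were taken, which gave 15 of 37593 probe sets. They stand for 8 genes, of 18 that the RefSeq gene table names in this way. A further 2 genes, SGF14I and SGF14h, have only probe sets that carry both symbols, and these were left out of the comparison. For the other 8 genes no probe set is so named.

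Mature pollen of cultivar Bragg was hybridised to 3 arrays, and 2 arrays took RNA of sporophytic organs from seedlings 10 days old. The pollen came from glasshouse plants that were brought to flower by shortening the photoperiod, and was rubbed from isolated anthers. The methods name primary stem, primary root and mature leaf as the seedling organs. In the results text of the study a sentence names leaves and stems only, while a later sentence and a figure caption name roots as well. Each sporophytic array is thus a mix of organs. In such mixtures, fewer cells of a type and less RNA per cell cannot be told apart. Values are log2 signals after Robust Multiarray Averaging (RMA), a difference is pollen minus sporophytic tissues on that scale, and a call needed an adjusted p under 0.05 from limma over all soybean probe sets. A signal of 100, which is 6.64 on the log2 scale, served as the minimum for expression.

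14-3-3 proteins work as dimers that clasp phosphorylated serine or threonine residues of other proteins and change their activity, partners or place in the cell. In plants they switch on the proton pump of the plasma membrane by binding its phosphorylated tail, hold nitrate reductase inactive, keep brassinosteroid transcription factors in the cytoplasm and join the florigen complex. In lily pollen they have been linked to the activity of the proton pump during germination and tube growth. Plant families of 14-3-3 proteins fall into an epsilon group and a non-epsilon group.

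Marker transcripts separated the arrays as labelled. The pollen markers of the study, a pectate lyase like LAT59, an Ole e 1 relative and a pollen phosphatase, had log2 signals between 13.67 and 15.33 on the pollen arrays and between 2.01 and 2.90 on the sporophytic arrays. The study had picked them from these same data. Of 11 green tissue probe sets (CAB3 of the light-harvesting complex and the Rubisco activases) 2, both of CAB3, reached a signal of 100 in pollen and 9 did so in sporophytic tissues. Their summed linear signal was 988 to 1203 on the pollen arrays, against 122696 and 34360 on sporophytic replicates 1 and 2. Of 26 probe sets for aquaporins and ENOD40, 18 were lower in pollen and 8 were not called, where 34.5% of all probe sets were called lower. The median log2 signal of all probe sets was 4.11 to 4.24 on the pollen arrays and 5.25 to 5.43 on the sporophytic arrays, and the median of all log2 differences was -0.22.

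The family split by gene. SGF14f, SGF14G and GF14A were higher in pollen, and GF14B, GF14C, GF14D, SGF14M and SGF14n were lower. Of the 15 probe sets, 7 were called higher and 6 were called lower, while 2 of the 5 probe sets of GF14A were not called. Of all soybean probe sets, 18.9% were called higher, 34.5% were called lower and 53.4% were called in either direction. That balance turned with the scaling, to 37.0% higher and 26.4% lower after a second quantile normalization and 53.3% higher and 26.2% lower with equal array medians. No pollen array overlapped a sporophytic array on any of the 15 probe sets, but 78.1% of all probe sets were separated in this way, 36.4% with every pollen array above and 41.7% with every pollen array below. A fall of 8-fold or more with a call was measured on 5 members, those of GF14B, GF14C, GF14D and SGF14n, and on 17.2% of all probe sets. With signals below 100 raised to 100 it was left on 4 of these members, and SGF14n dropped out. The share of all probe sets after this step is not given, and the 17.2% is without it. The count also depended on the scaling. After the second quantile normalization GF14D (-2.996) and SGF14n (-2.98) were just short of an 8-fold fall. With equal array medians GF14D (-2.27) was short of it. A rise of 8-fold or more with a call was seen on both members of SGF14f and on 4.92% of all probe sets. The largest rise was that of SGF14f, with a difference of 3.71, and the most negative measured difference was that of GF14B, with -5.82. The pollen values of GF14B were below 100, and with such values raised to 100 GF14C had a larger fall (-4.01 on Gma.105.1.S1_at, against -3.84 for GF14B), so the order of these genes was not settled. No gene had probe sets called in opposite directions.

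**Figure D1:**
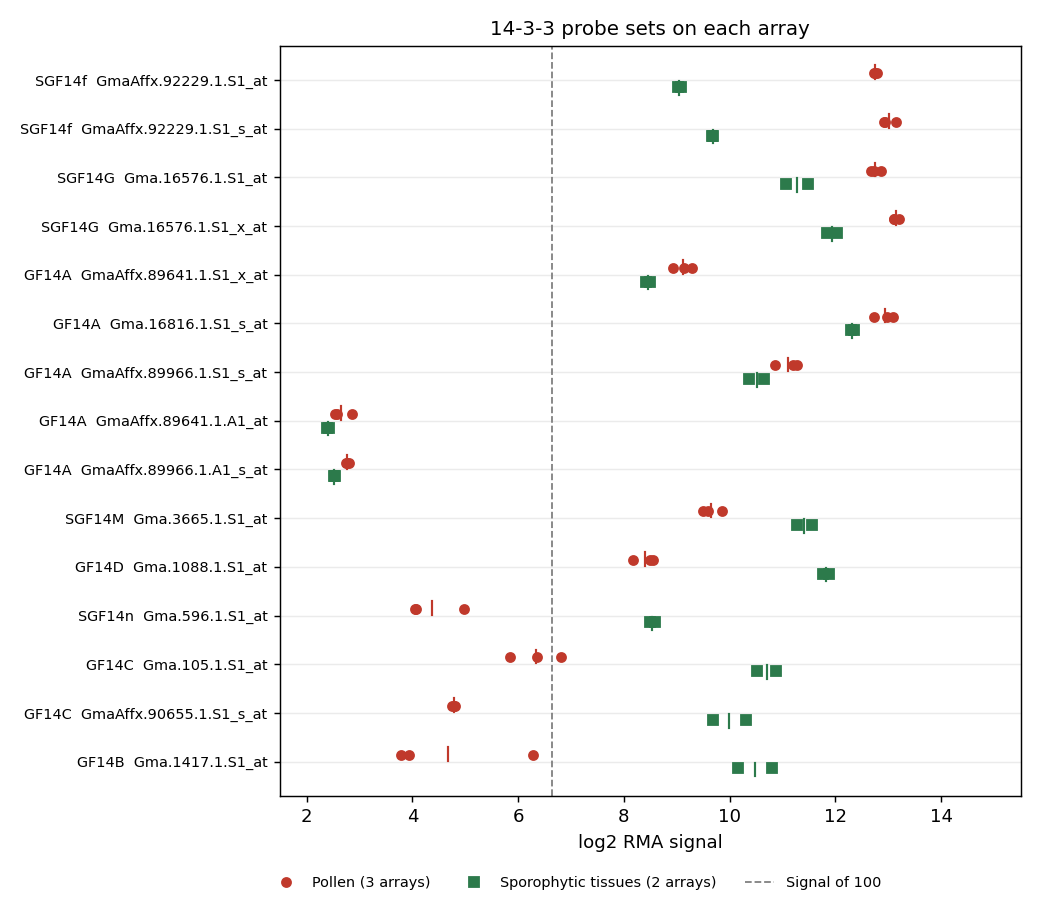
Log2 RMA signal (x axis) of each 14-3-3 probe set (rows, from the largest rise to the largest fall), with 3 pollen arrays as circles, 2 sporophytic arrays as squares, group means as short vertical lines and a signal of 100 as a dashed line. All circles lie right of the squares for SGF14f, SGF14G and GF14A and left of them for the other 5 genes, and the pollen circles of GF14B are spread from 3.79 to 6.28.

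SGF14f had the largest rise of the family. The study matched its probe sets to GRF12 of Arabidopsis, a member of the epsilon group there. Both probe sets were listed by the study among the transcripts higher in pollen on these same arrays. Its text names 14-3-3 proteins in general among the signalling proteins that were higher in pollen, whereas 5 of the 8 genes here were lower. On GmaAffx.92229.1.S1_at the log2 signal was 12.79, 12.73 and 12.74 in pollen, against 9.02 and 9.08 in sporophytic tissues. The 3 pollen arrays lay within 0.06 of each other and the gap to the nearest sporophytic array was 3.65. The difference was 3.71 (standard error 0.05, adjusted p = 3.58e-05 from limma), a 13.1-fold higher signal. The second probe set, GmaAffx.92229.1.S1_s_at, had 13.14, 12.93 and 12.94 in pollen, against 9.66 and 9.69 in sporophytic tissues, and a difference of 3.33 (adjusted p = 1.13e-04 from limma). This second rise was 10.0-fold. SGF14f also had a signal above 100 in the seedling organs, so its transcript was not confined to pollen.

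SGF14G was higher by a smaller amount. On Gma.16576.1.S1_at the log2 signal was 12.86, 12.67 and 12.72 in pollen, against 11.48 and 11.07 in sporophytic tissues. The difference was 1.48 (standard error 0.16, adjusted p = 0.00304 from limma), or 2.78-fold. Gma.16576.1.S1_x_at, which can take signal from related transcripts, had 13.21, 13.10 and 13.11 in pollen, against 12.02 and 11.83 in sporophytic tissues. Its difference was 1.21 (standard error 0.09, adjusted p = 0.00103 from limma), or 2.32-fold. The gap between the groups was 1.19 and 1.08, several times the spread of the pollen arrays on either probe set.

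GF14A is the gene with the most probe sets, 5, and the smallest differences. Its brightest probe set, Gma.16816.1.S1_s_at, had log2 signals of 12.73, 13.09 and 12.98 in pollen, against 12.35 and 12.30 in sporophytic tissues. The difference was 0.61 (standard error 0.13, adjusted p = 0.0231 from limma), or 1.53-fold. GmaAffx.89641.1.S1_x_at had 8.93, 9.14 and 9.29 in pollen, against 8.42 and 8.50 in sporophytic tissues, a difference of 0.66 (adjusted p = 0.0175 from limma). GmaAffx.89966.1.S1_s_at had 10.86, 11.19 and 11.28 in pollen, against 10.37 and 10.66 in sporophytic tissues, and its difference of 0.60 did not pass (adjusted p = 0.0557 from limma). These 3 probe sets gave nearly the same difference, between 0.60 and 0.66, and their pollen arrays spread over 0.36 to 0.42, so the shift was less than 2 times that spread. Their suffixes _s_at and _x_at mark designs whose probes may match more than 1 transcript, and near copies of GF14A cannot be told apart from it. The calls of GF14A changed with single arrays. The brightest probe set kept its call without pollen replicate 1 (adjusted p = 0.0115 from limma) and lost it without any of the other 4 arrays (adjusted p from 0.0611 to 0.0910). GmaAffx.89641.1.S1_x_at kept its call without pollen replicate 1 or 3 and lost it without pollen replicate 2 or either sporophytic replicate (adjusted p from 0.0600 to 0.0741). GmaAffx.89966.1.S1_s_at was called without pollen replicate 1 (adjusted p = 0.0372).

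The remaining probe sets of GF14A, both with A1 in place of S1 in their name, were dim. GmaAffx.89641.1.A1_at had log2 signals of 2.86, 2.54 and 2.57 in pollen, against 2.39 and 2.42 in sporophytic tissues, and was not called (adjusted p = 0.169 from limma). GmaAffx.89966.1.A1_s_at had 2.75, 2.80 and 2.76 in pollen, against 2.51 and 2.53 in sporophytic tissues. It was called higher by 0.25 (adjusted p = 0.0180 from limma), a call lost without any 1 of the pollen arrays (adjusted p from 0.0537 to 0.0777). None of the 5 arrays reached a signal of 100 on either, and with all values raised to that minimum both differences were 0.

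GF14B had the most negative measured difference and the least even pollen arrays. Its probe set Gma.1417.1.S1_at had log2 signals of 6.28, 3.93 and 3.79 in pollen, against 10.17 and 10.80 in sporophytic tissues. Pollen replicate 1 was thus 2.34 above the next pollen array and still 3.89 below the nearest sporophytic array. The difference was -5.82 (standard error 0.94, 95% interval -8.47 to -3.16, adjusted p = 0.0103 from limma). Without pollen replicate 1 it was -6.62 (adjusted p = 0.00251). Without sporophytic replicate 2 it was -5.50 and was not called (adjusted p = 0.0587). The summed signal of the green tissue markers was 1203 on pollen replicate 1, against 994 and 988 on the other pollen arrays, with 2 of 11 at a signal of 100 on each. The aquaporin and ENOD40 list ran the other way, with a sum of 1392 and 5 of 26 at 100 on pollen replicate 1, against 2096 and 1958 with 7 and 8 of 26 on the other pollen arrays. The part of other tissue in the value of GF14B was not tested. All 3 pollen values of GF14B were below a signal of 100. With these raised to 100, the fall was still at least 14.3-fold.

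GF14C, linked by gene silencing in soybean to the formation of root nodules, was lower on both of its probe sets. Gma.105.1.S1_at had log2 signals of 5.85, 6.35 and 6.80 in pollen, against 10.88 and 10.52 in sporophytic tissues. Only pollen replicate 3 reached a signal of 100. The difference was -4.37 (standard error 0.34, adjusted p = 0.00129 from limma). GmaAffx.90655.1.S1_s_at had 4.75, 4.81 and 4.79 in pollen, against 9.68 and 10.30 in sporophytic tissues, so that it was lower in pollen, at -5.21 with a standard error of 0.21 (adjusted p = 2.57e-04 from limma). On this probe set the pollen arrays lay within 0.06 of each other, and the sporophytic pair differed by 0.62. With array weights Gma.105.1.S1_at was not called (-4.13, adjusted p = 0.159). With pollen values below 100 raised to it, the falls were at least 16.1-fold and 10.2-fold.

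SGF14n and GF14D, single probe sets each, were both lower in pollen. The difference was -4.18 for SGF14n and -3.42 for GF14D. SGF14n (Gma.596.1.S1_at) had 4.05, 4.08 and 4.97 in pollen, against 8.58 and 8.50 in sporophytic tissues (standard error 0.35, adjusted p = 0.00157 from limma). Its pollen values were all below a signal of 100, and raising them to 100 left a fall of at least 3.73-fold. With array weights SGF14n was not called (-3.94, adjusted p = 0.292). GF14D (Gma.1088.1.S1_at) had 8.17, 8.49 and 8.55 in pollen, against 11.88 and 11.76 in sporophytic tissues (standard error 0.15, adjusted p = 2.96e-04 from limma). GF14D was above 100 on all arrays, so its 10.7-fold fall does not depend on dim values.

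SGF14M had the smallest fall. On Gma.3665.1.S1_at the log2 signal was 9.86, 9.58 and 9.49 in pollen, against 11.55 and 11.27 in sporophytic tissues. The difference was -1.77 (standard error 0.16, adjusted p = 0.00202 from limma), a 3.40-fold lower signal, and all arrays were above 100. With the array medians made equal it was -0.62 and was not called (adjusted p = 0.0584), and with array weights it was -1.85 and was not called (adjusted p = 0.0965).

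**Figure D2:**
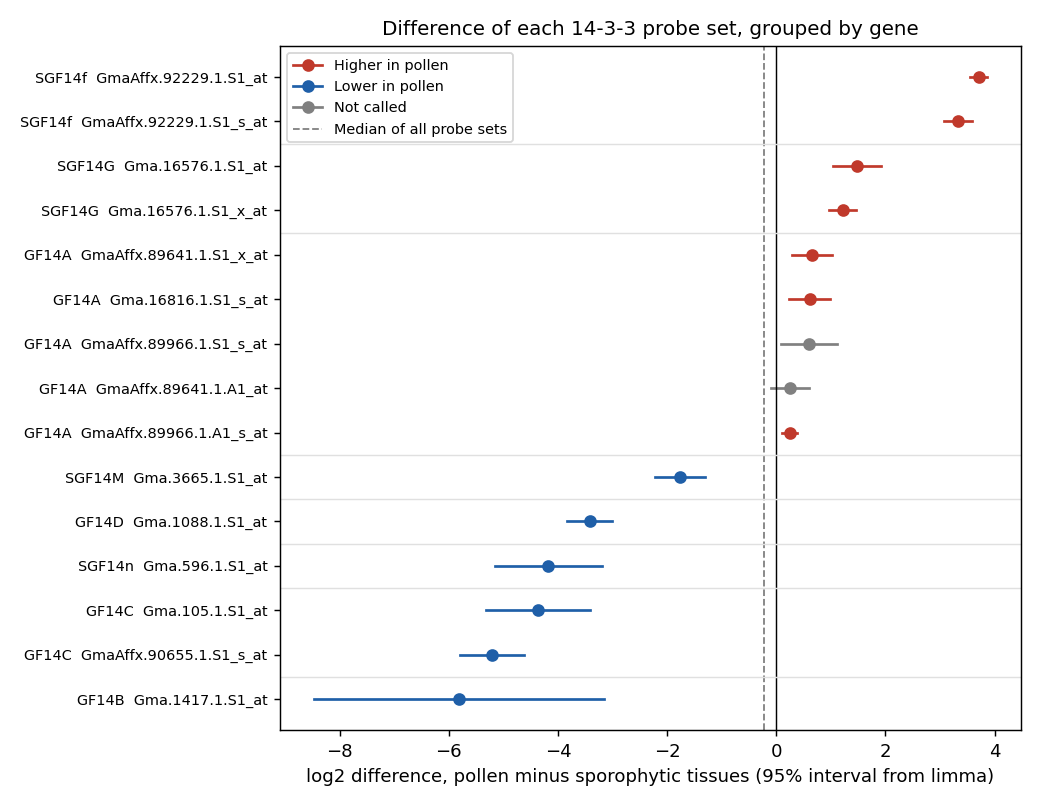
Log2 difference between pollen and sporophytic tissues (x axis) of each 14-3-3 probe set (rows, grouped by gene), with the 95% interval from limma as a bar, the call as colour and the median of all probe sets, -0.22, as a dashed line. The intervals of SGF14f and SGF14G lie above 0, those of GF14B, GF14C, GF14D, SGF14M and SGF14n lie below 0, and GF14B has the widest, from -8.47 to -3.16.

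Expression above the minimum was counted by group. In pollen, 9 of the 15 members had at least 100 on each array, where 17.4% of all probe sets did. In sporophytic tissues 13 members did so, where 29.8% of all probe sets did, and the 9 were among these 13, with 11.1% of all probe sets at 100 on all 5 arrays. The genes that reached it in pollen were SGF14f, SGF14G, GF14A, GF14D and SGF14M, while GF14B, GF14C and SGF14n did not. No probe set of the family was above 100 in pollen alone. By size, the 6 probe sets called lower had a median difference of -4.27, with -2.99 for all probe sets called lower. The 7 called higher had a median of 1.21, with 1.65 for all called higher. With the probe sets of a gene averaged, GF14A had a difference of 0.47, SGF14G of 1.35, SGF14f of 3.52 and GF14C of -4.79. All 8 genes passed (adjusted p from 5.98e-05 to 0.0103 from limma), where 53.4% of all probe sets were called in either direction. The average of GF14A takes in its dim A1 probe sets, and no array was left out for these averages.

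The spread between replicates was small beside most differences. Over the 15 probe sets the median range was 0.36 among the pollen arrays and 0.12 between the sporophytic arrays, against 0.15 and 0.39 over all probe sets. After GF14B, the widest pollen range was 0.95, on Gma.105.1.S1_at of GF14C. GF14A was the gene whose groups came closest, with gaps of 0.12 to 0.43.

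The direction of each member did not turn with the scaling. The median of all differences was 0.12 after a second quantile normalization and 0.93 with equal array medians. On GmaAffx.92229.1.S1_at SGF14f then had differences of 4.19 and 4.86, and GF14B had -5.10 and -4.67. With equal medians the probe sets of SGF14G had 2.63 and 2.36, and GF14D had -2.27. GF14A moved the most for its size, with 1.65 on GmaAffx.89641.1.S1_x_at after quantile normalization and 1.40 to 1.81 over its 5 probe sets with equal medians. Relative to the median of all probe sets, SGF14f was higher by 3.93 with the deposited values and by 4.07 after quantile normalization, and GF14A on its brightest probe set by 0.83 and 0.42. Counts of members higher and lower were 8 and 6 after quantile normalization, where 37.0% and 26.4% of all probe sets were called, and 9 and 5 with equal medians, where 53.3% and 26.2% were called.

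**Figure D3:**
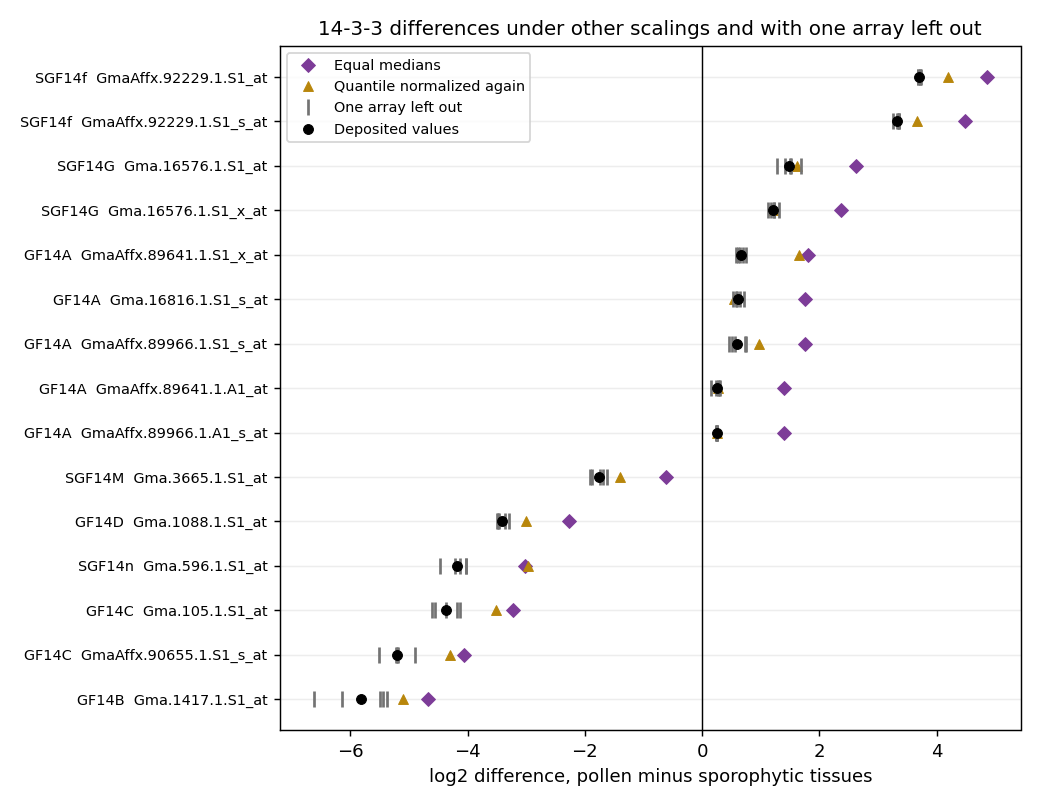
Log2 difference between pollen and sporophytic tissues (x axis) of each 14-3-3 probe set (rows) with the deposited values (circles), with 1 array left out (ticks), after a second quantile normalization (triangles) and with equal array medians (diamonds). No marker crosses 0, and SGF14M comes nearest among the genes that fell, at -0.62 with equal medians.

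Proton pumps of the plasma membrane are among the best known partners of 14-3-3 proteins, and interactors of the pump are given beside them. Gene symbols of the annotation gave no pump, and those named by the study, which chose them on these arrays, are given here as a description. AHA8, a proton pump known from Arabidopsis pollen, had log2 signals of 14.57, 14.54 and 14.62 in pollen, against 2.10 and 2.10 in sporophytic tissues. AHA9 had 10.02, 8.83 and 8.64 in pollen, against 2.30 and 2.50 in sporophytic tissues. The 4 probe sets of PPI1, a protein that binds the pump in Arabidopsis, had differences of 3.32 to 6.35. The sporophytic values of AHA8 and AHA9 were below 100, and raised to 100 they left rises of at least 244-fold and 5.74-fold. Every pollen value of these 6 probe sets was above every sporophytic value, as was so for 36.4% of all probe sets. The study had listed the 6 as higher in pollen, each with a smaller log2 ratio than the difference here, so this is no separate result.

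Partners were also listed by gene symbol, together with CHS8, which is a target gene of the partner MYB176 and not itself a listed partner. Of the 14 probe sets on this list, CHS8 included, 1 was higher, 6 were lower and 7 were not called. These counts are near the 18.9%, 34.5% and 46.6% of all probe sets. The median difference of the list was -1.21, against -0.22 for all. The 1 that rose was CDPK-BETA, a calcium-dependent protein kinase of a family that phosphorylates 14-3-3 clients. It had 11.55, 11.81 and 11.90 in pollen, against 3.57 and 4.47 in sporophytic tissues, which put the difference at 7.74 with a standard error of 0.32 (adjusted p = 2.78e-04 from limma). Its sporophytic values were below a signal of 100, and raised to 100 they left a rise of at least 34.6-fold. It is also in a table of the study, drawn from these arrays, with a smaller log2 ratio than the difference here. The other kinases went the other way. CDPK-GAMMA fell by 3.54 (adjusted p = 0.00218 from limma) and CDPK fell by 1.96 (adjusted p = 0.00395). Their pollen values were below 100, and raised to 100 they left falls of at least 3.21-fold and 3.40-fold.

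MYB176, which binds a 14-3-3 protein and activates the chalcone synthase gene CHS8 in soybean, had log2 signals of 10.30, 10.13 and 9.97 in pollen, against 11.08 and 10.52 in sporophytic tissues. Its difference of -0.66 did not pass (adjusted p = 0.0693 from limma). CHS8 was lower on 1 of its 5 probe sets, Gma.4300.1.S1_s_at, with a difference of -4.04 (adjusted p = 0.00580). That probe set had 2.46, 2.76 and 2.75 in pollen, against 5.90 and 7.49 in sporophytic tissues, and only sporophytic replicate 2 reached a signal of 100. The brassinosteroid factor BES1-12 fell by 1.75 (adjusted p = 0.0335 from limma), with pollen values below 100 that left at least 1.53-fold when raised to it. BES1-4 was below 100 on all 5 arrays, with means of 6.07 ± 0.08 in pollen (SD, n = 3 arrays) and 6.36 ± 0.10 in sporophytic tissues (SD, n = 2 arrays) and a call at the edge of the threshold (limma adjusted p = 0.0489). Nitrate reductase was dim on all arrays. INR1 had 2.53 to 2.55 in pollen, against 3.68 and 5.27 in sporophytic tissues, with a difference of -1.94 (adjusted p = 0.0430 from limma), and INR2 was not called (adjusted p = 0.122). FT1A of the florigen family stayed below 100 on all arrays and was not called (adjusted p = 0.0503).

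**Figure D4:**
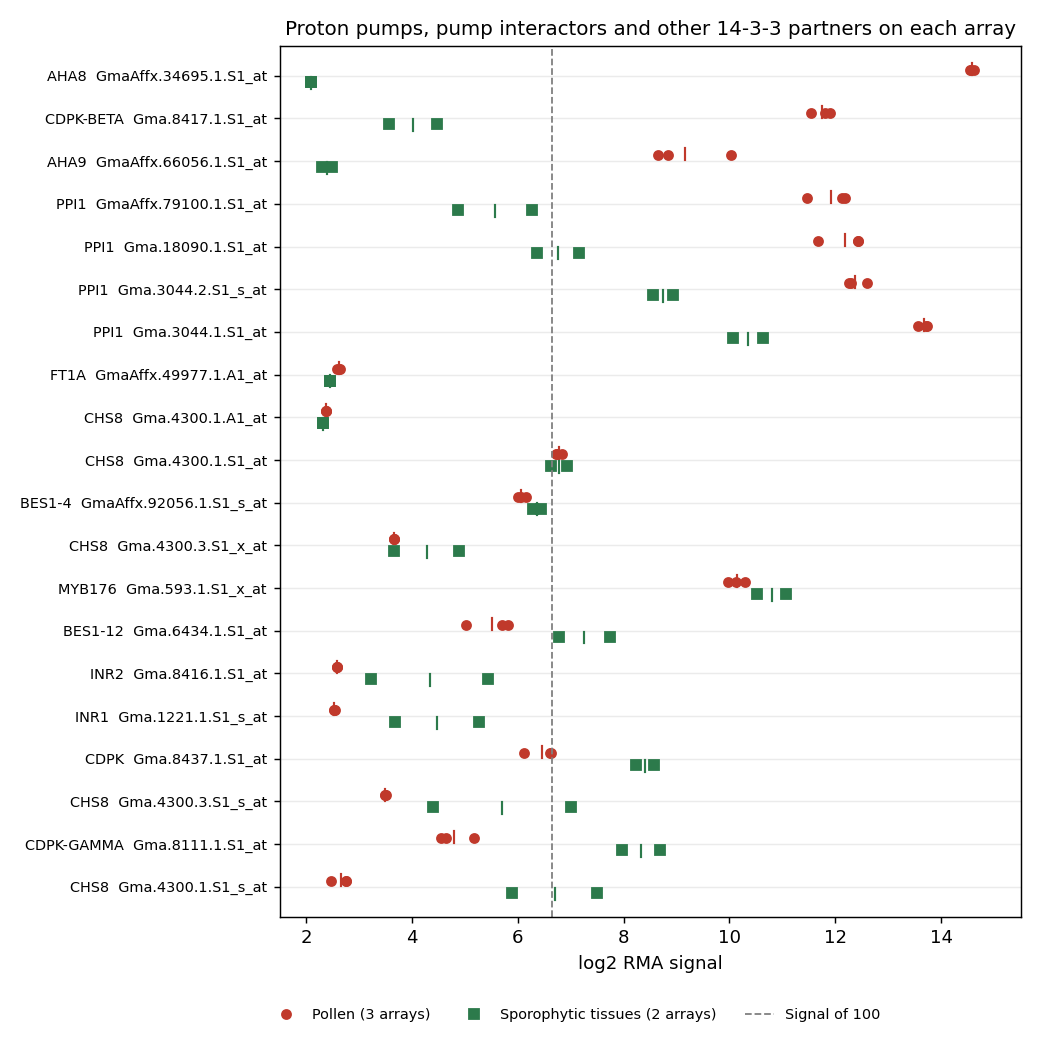
Log2 RMA signal (x axis) of proton pumps, pump interactors, other partners of 14-3-3 proteins and CHS8 (rows, from the largest rise to the largest fall). The 3 pollen arrays are circles, the 2 sporophytic arrays are squares, group means are short vertical lines and a signal of 100 is a dashed line. The 6 probe sets of AHA8, AHA9 and PPI1 and the kinase CDPK-BETA lie far to the right in pollen, with CDPK-BETA at 11.55 to 11.90, and most others lie left of their squares.

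Among 8662 probe sets with 1 gene symbol outside the family, those nearest to SGF14f in log2 signal over the 5 arrays were LOC100797070, LOC100800200 and LOC100526942, with root mean square distances of 0.16, 0.20 and 0.21. LOC100797070 averaged 12.90 ± 0.09 over the pollen arrays (SD, n = 3) and 8.95 ± 0.13 over the sporophytic arrays (SD, n = 2). Nearest to GF14B were LOC100499748, LOC100812989 and PMM, with distances of 0.54, 0.57 and 0.75. These are distances over 5 arrays that fall in 2 groups, given as a description.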

How the data were processed

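The authors hybridised labelled RNA to the soybean array, imported the raw signals into affylmGUI and normalized them by RMA. The deposited values are log2 signals, 1 column per array, here for soybean probe sets alone. Software versions are not given in the sources used here. Symbols came from the platform annotation (8677 probe sets had 1 symbol, 370 had more and 28546 had none), and all 15 members were matched to the RefSeq gene table (Glycine_max_v4.0), from which names alone were taken. All 37593 probe sets were fitted with limma 3.58.1 in R 4.3.3 (empirical Bayes, 3 residual and 0.854 prior degrees of freedom), two-sided, with Benjamini-Hochberg adjustment and no filter. The members and lists were chosen with earlier results of these data known. Every member is named by rule, as are up to 4 called partners per group and the 3 probe sets nearest to the largest rise and fall. Nothing in the labels ties arrays with the same number together, and the replicate block was an alternative. The methods of the study call the arrays biological replicates, while their titles say replicate only, and their number limits the precision. Folds written as at least were computed, after the values were seen, with signals below 100 raised to 100. The fit was tested on simulated data. The alternatives covered scaling, dim probe sets, the variance model, array weights, a replicate block, thresholds, shared probe sets and each array left out. Figures were drawn with matplotlib 3.10.9.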

Additional observations from a re-analysis of the deposited data

Results flagged for a closer look

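Probe sets outside the comparison also carried 14-3-3 signal or shared a cluster number with a member, and all 7 of them were higher on every pollen array than on both sporophytic arrays, as were 36.4% of all probe sets. The 4 that carry the symbols of both SGF14I and SGF14h had log2 differences of 1.05 (Gma.10700.1.S1_at), 0.89, 0.71 and 0.76 (GmaAffx.91867.1, with the endings S1_at, S1_s_at and S1_x_at), with adjusted p between 0.00334 and 0.00787 from limma. Signal of these 2 genes cannot be told apart. Gma.10700.1.S1_at had 12.28, 12.50 and 12.36 in pollen, against 11.53 and 11.14 in sporophytic tissues.

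The 3 that have no symbol share the cluster number of a member. Gma.16576.2.S1_a_at and Gma.16576.2.S1_x_at, of the cluster of SGF14G, had differences of 1.94 and 1.83, a little above those of SGF14G itself. Gma.16816.1.A1_at, of the cluster of GF14A, had a difference of 3.52 (adjusted p = 0.00307 from limma), with 8.40, 9.45 and 9.16 in pollen, against 5.63 and 5.34 in sporophytic tissues, while the GF14A probe set Gma.16816.1.S1_s_at of that cluster rose by 0.61. Which transcript these 3 measure was not tested.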

How the results depend on the processing

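No member changed direction in any alternative, but only the changes of scaling could have turned a sign. The groups do not overlap on any member, so leaving out or weighting arrays could not. Filters, variance models and thresholds leave the difference as it is. Of the values for single members, 200 kept their side of the threshold, 30 lost the call and 6 gained one. SGF14f, SGF14G, GF14D and the GF14C probe set GmaAffx.90655.1.S1_s_at were called in each of their 16 alternatives. Members called higher numbered 4 in place of 7 with array weights, with a replicate block, at an adjusted p under 0.01 and with a fold of at least 2, and 4 to 7 with 1 array left out (4 without pollen replicate 2). The 4 were SGF14f and SGF14G, and the calls lost were those of GF14A. Members called lower numbered 2 in place of 6 with array weights, where GF14B (adjusted p = 0.309), Gma.105.1.S1_at of GF14C (0.159), SGF14n (0.292) and SGF14M (0.0965) lost the call, and 5 to 6 with 1 array left out. Over all probe sets, 7104 of 37593 were higher with the deposited values, 13917 after quantile normalization and 20047 with equal medians. The study reported fewer transcripts higher in pollen at the same adjusted p threshold, and the reason was not tested. With dim probe sets left out fewer were tested. There, 4602 of 20898 were higher at a log2 signal of 5 and 3682 of 13590 at a signal of 100. The count was 2182 with array weights, 3511 with the replicate block and 4306 at an adjusted p under 0.01. It was 4824 to 6134 with 1 pollen array left out (lowest without pollen replicate 3). The 12969 lower calls became 9940 after quantile normalization and 9837 with equal medians. With dim probe sets left out they were 11710 of 20898 and 8123 of 13590, in the same order. They were 8350 with array weights, 8634 with the block and 10656 to 11112 with 1 pollen array left out. Deviations sharing a replicate number had correlations of 0.024 and 0.016. These values cannot show whether the arrays were paired, and the labels do not say. With the replicate block GF14B was not called (limma adjusted p = 0.0953). The cause of these changes was not tested. Signal over background limits GF14B, GF14C and SGF14n, whose pollen values are near or below 100.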
